A study of Mus musculus with 8 samples.

Results

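The immediate early transcription factor genes of the AP-1 and Egr group were examined in RNA from the ventricles of mouse embryos at E9.5. The 10 genes were chosen by symbol, with earlier results of these data known, as *Fos*, *Fosb*, *Fosl2*, *Jun*, *Junb*, *Jund*, *Atf3*, *Egr1*, *Ier2* and *Klf6*, and all 10 were found by symbol among the 53465 genes of the count table. The samples were 4 WT ventricle samples and 4 ventricle samples of genotype Nrg-1flox;Tie2-Cre, called mutant here. In the mutant a conditional allele of *Nrg1*, which encodes the ErbB receptor ligand neuregulin, is combined with a Cre transgene under Tie2 control, which is active in endothelial cells, endocardium included, and also in much of the blood lineage. What alleles the WT samples carried beyond that name, and whether a sample was 1 heart or a pool, is not given in the labels, so p-values here measure the spread between these samples, which may in part be technical. Each library was made from 200 ng of total RNA by poly(A) selection and sequenced with single reads of 60 bases, and its total was 11852372 to 14360323 counts in WT and 12430368 to 14223860 in the mutant.

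Immediate early genes are transcribed within minutes of a stimulus without new protein synthesis. Growth factor receptors, ErbB receptors among them, reach many of them through the ERK kinases, which act on ETS factors bound with SRF, while the JNK and p38 kinases, cell stress and the dissection of a tissue reach an overlapping set. AP-1 is a dimer of a Fos family protein with a Jun family protein, both of the bZIP class, that binds a short palindromic DNA site. The comparison of mutant with WT asks whether these genes are lower where the endocardial ligand was targeted or higher in the mutant samples. It was made with all 8 samples and again without mutant replicate 1.

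*Nrg1* itself was lower in the mutant. Its level was 11.9, 9.38, 9.94 and 11.7 CPM, the TMM-scaled counts of a gene relative to its library total, in WT replicates 1 to 4 and 5.17, 4.27, 5.11 and 5.93 CPM in mutant replicates 1 to 4. All 4 mutants lay below all 4 WT samples, with a log2 fold change of -1.07 ± 0.14 (SE, n = 4 and 4) and an adjusted p of 0.00268 in the quasi-likelihood test of edgeR after Benjamini-Hochberg adjustment, the test behind every adjusted p given with no other tool. Mutant replicate 1 stood apart from the other mutants over the whole table, since the chi-square of its counts per degree of freedom against them was 30.3 to 52.6, against 4.64 to 14.4 among mutant replicates 2 to 4 and 3.74 to 6.14 among WT samples. The share of counts from hemoglobin genes was 0.671% to 0.799% in WT and 6.26%, 1.93%, 3.8% and 3.89% in mutant replicates 1 to 4. The summed level of 10 erythroid markers was 6689 to 8089 CPM in WT and 68680, 19820, 40170 and 41170 CPM in the mutants, and all 10 were called higher in the mutant. Beside this and the marker counts below, 5.11% of all genes tested were called higher and 3.5% lower with all samples. Without mutant replicate 1 these shares were 9.35% and 7.89%. The 10 cardiomyocyte markers summed to 34800 to 37070 CPM in WT and 33600 to 36180 CPM in the mutant, none of them called with all samples, so the markers that define ventricle muscle were abundant in both groups. The groups also did not overlap in the summed level of 4 other marker lists. Of single genes, 9.52% had all 4 mutants above all 4 WT samples, and the share with all 4 below was not counted. The 10 endocardial and endothelial markers, which mark the cells that the Cre targets, summed to 896.6 to 974.7 CPM in WT and 765 to 881.9 CPM in the mutant, and 1 of them, *Tek*, was called lower with all samples (log2 fold change -0.34, adjusted p = 0.031). Without mutant replicate 1, the comparison in which *Egr1* was called lower, 3 of the 10 were lower, beside 7.89% of all genes. These were *Kdr* (-0.51, adjusted p = 0.00162), *Flt1* (-0.33, adjusted p = 0.0115) and *Tek* (-0.28, adjusted p = 0.0156). Of the cardiomyocyte markers, *Nkx2-5* (0.22, adjusted p = 0.0149) and *Actc1* (0.16, adjusted p = 0.00794) were then higher and *Ttn* (-0.23, adjusted p = 0.0491) was lower. The 9 epicardial markers summed to 268.1 to 313 CPM in WT and 346.9 to 500.3 CPM in the mutant, with *Wt1* and *Tbx18* called higher among 8 tested. Without mutant replicate 1, *Tcf21* (0.76, adjusted p = 0.036) was called higher as well, which made 3 of 8. The 6 megakaryocyte markers summed to 29.6 to 46.9 CPM in WT and 167.7, 51.0, 54.2 and 60.3 CPM in mutant replicates 1 to 4, with 2 called higher, and the 8 outflow and pharyngeal markers summed to 91.4 to 109.5 CPM in WT and 77.4 to 89.2 CPM in the mutant, with 2 called lower among 6 tested. The macrophage and neural lists overlapped between the groups, at 20.1 to 26.3 and 15.05 to 21.09 CPM in WT and 21.8 to 30.3 and 14.07 to 19.69 CPM in the mutant, with 1 of 4 macrophage markers tested, *Csf1r*, called higher (log2 fold change 1.08, adjusted p = 0.00657, and also without mutant replicate 1) and neither of the neural markers tested called. The part of these other cells in the *Nrg1* value and in the results below was not tested, and in bulk tissue fewer cells of a type and less RNA per cell cannot be told apart.

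Upstream sequences are shown for *Fos*, *Fosb*, *Junb* and *Atf3*, because they are among the genes that were highest in mutant replicate 1 and because they share a short motif near the start of transcription. The RefSeq table on GRCm38.p6 held a window of 300 bases, 250 before to 50 after the start site, for 8 of the 10 genes, and none for *Egr1* and *Ier2*. The 120 bases before the start are given 5′ to 3′ on the gene's strand, at chr12:85473770-85473889 on the plus strand for *Fos* and, on the minus strand, at chr7:19310046-19310165 for *Fosb*, chr8:84978749-84978868 for *Junb* and chr1:191183334-191183453 for *Atf3*. Capitals mark the 5 bases TGACG, which form the core of the cyclic AMP response element bound by CREB and ATF proteins, or their reverse complement CGTCA.
Fos: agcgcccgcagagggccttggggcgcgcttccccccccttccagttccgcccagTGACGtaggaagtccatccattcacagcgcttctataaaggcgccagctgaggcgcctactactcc
Fosb: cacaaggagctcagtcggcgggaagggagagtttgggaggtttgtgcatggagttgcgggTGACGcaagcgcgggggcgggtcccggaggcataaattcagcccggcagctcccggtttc
Junb: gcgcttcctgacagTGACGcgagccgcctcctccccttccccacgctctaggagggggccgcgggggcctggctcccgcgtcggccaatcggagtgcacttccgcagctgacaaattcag
Atf3: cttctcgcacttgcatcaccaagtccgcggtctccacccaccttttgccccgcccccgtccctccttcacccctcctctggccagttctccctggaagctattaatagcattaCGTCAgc
The last 6 bases of the *Fosb* stretch and the last 7 of the *Atf3* stretch lie in an annotated exon of another transcript.

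The motif TGACG was chosen after these sequences had been seen. It occurred on either strand in 4 of the 8 windows, those of *Fos*, *Fosb*, *Junb* and *Atf3*, and in 20.8% of all 32851 windows of the same length. The windows of *Fosl2*, *Jun* and *Klf6*, which were also highest in mutant replicate 1, and that of *Jund* did not hold this motif. TGACG lay at several positions. It lay at bases -129 to -125 and -66 to -62 of *Fos*, at -60 to -56 of *Fosb*, at -106 to -102 of *Junb* and, on the opposite strand, at -7 to -3 of *Atf3*, so the first of the *Fos* matches lies outside the stretch printed. The full palindrome TGACGTCA was in 0 of the 8 windows and in 1.79% of all windows. The AP-1 site TGANTCA was in 0 and 7.81%, the ETS-type motif CCGGAA in 0 and 14.9%, and the CArG box bound by SRF in 0 and 1.63%. CCGGAA is longer than the ETS core GGAA, which was not counted and which occurs, on either strand, in the stretches printed above. A match is a description of letters and not of a bound site, and no match says only that these letters are not in this window.

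The members differed widely in level. On the scale of WT CPM per kilobase of merged exon, *Jund* was highest at 115.5 ± 9.82 (SD, n = 4), at percentile 97.2 of the genes tested. *Ier2*, a small nuclear protein gene, followed at 28.9 ± 1.81, *Jun* at 23.2 ± 2.55 and *Klf6*, a zinc finger factor, at 10.8 ± 0.48 CPM per kilobase. *Atf3*, a bZIP factor induced by stress, stood at 5.24 ± 0.33, beside a median over all genes tested of 5.15. The genes *Junb*, *Egr1*, *Fos*, *Fosl2* and *Fosb* lay below that median at 2.66 ± 0.55, 2.35 ± 0.33, 2.33 ± 0.34, 1.56 ± 0.086 and 0.145 ± 0.031 CPM per kilobase, and *Fosb* stood at percentile 1.47. In this order the WT samples of *Junb* and *Egr1* overlapped, as did those of *Egr1* and *Fos*, while the other neighbours did not overlap. In mutant replicates 2 to 4 *Egr1* stood at 1.26 ± 0.39 CPM per kilobase (SD, n = 3), below *Fosl2* at 1.79.

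**Figure D1:**
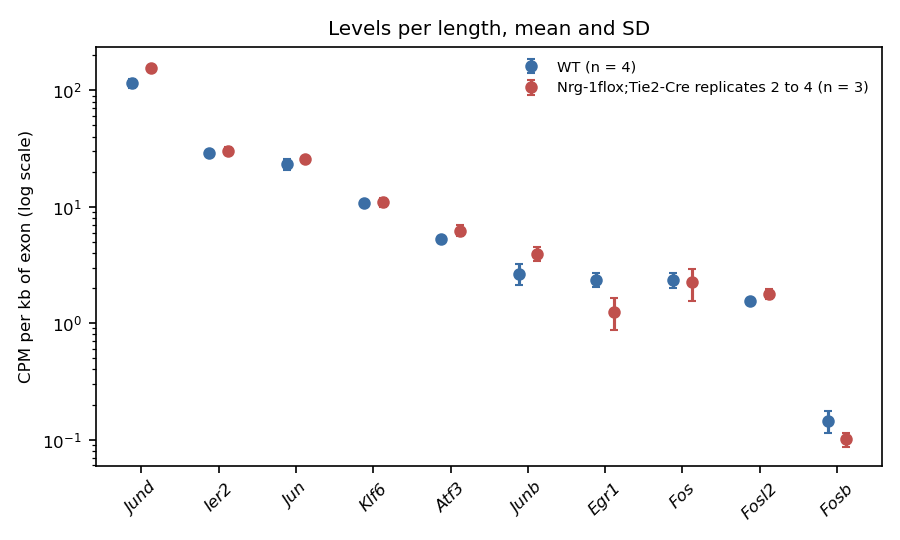
Level of each gene in CPM per kilobase of merged exon on a log axis, as mean (point) and SD (bar) of the 4 WT samples and of mutant replicates 2 to 4. The WT means run from 0.145 for Fosb to 115.5 for Jund, and Egr1 is at 2.35 in WT and 1.26 in those mutants.

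With all 8 samples, none of the 10 genes was called at an adjusted p under 0.05, beside 8.62% of the 14451 genes tested. At an unadjusted p under 0.05 there were 4 members, *Atf3*, *Fosl2*, *Junb* and *Jund*, all with higher means in the mutant, beside 25% of all genes. The log2 fold change was above 0 for 8 of the 10, with a median of 0.33, where the median of all genes tested was -0.0014. The other tools made calls among the members from the same 8 samples. DESeq2 called *Junb* and *Jund* higher, beside 12.3% of all genes, and limma-voom with sample quality weights called *Junb* and *Jund* higher and *Egr1* lower, beside 21.2%. Without mutant replicate 1, edgeR called 3 of the 10, beside 17.2% of 14630 genes. These were *Junb* and *Jund* among the higher genes, which made up 9.35% of all, and *Egr1* among the lower, which made up 7.89%, and the median of the 10 was 0.10 beside -0.0076 for all genes.

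**Figure D2:**
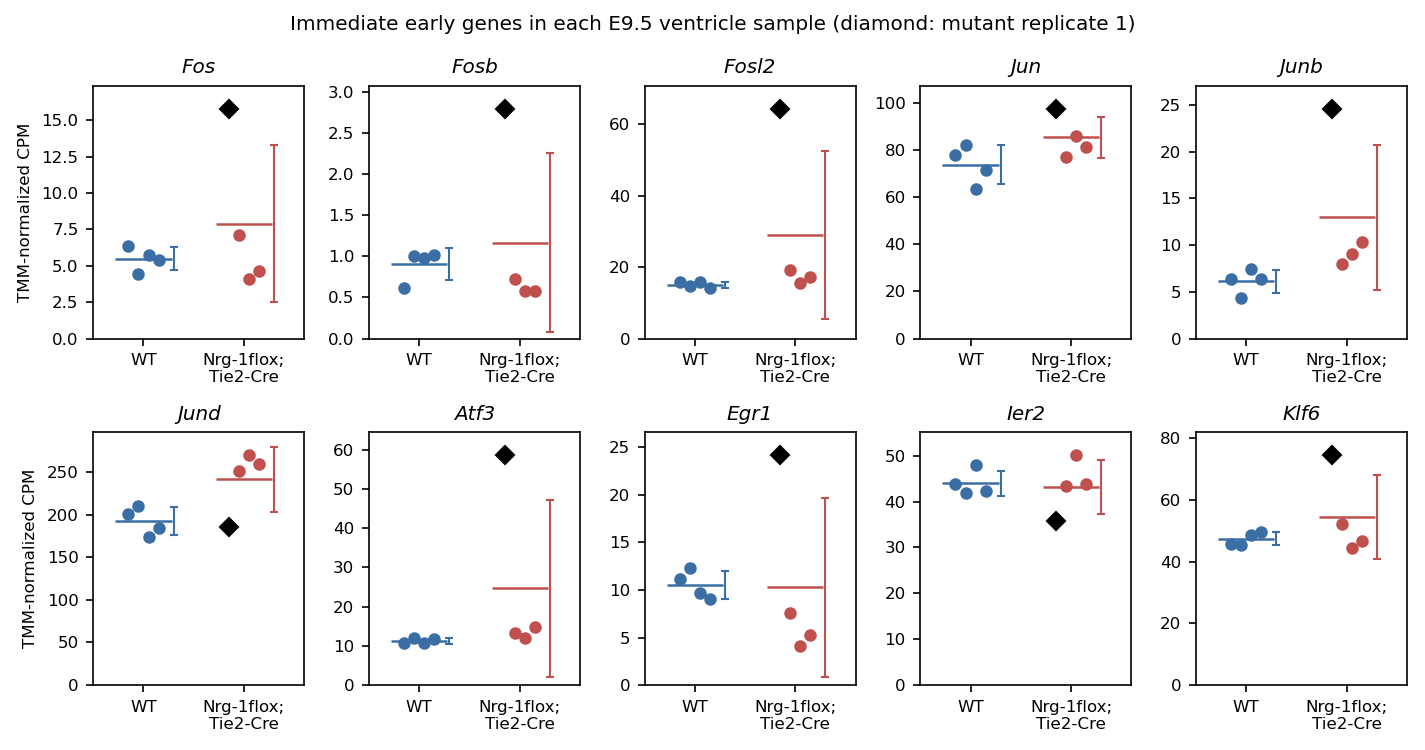
TMM-normalized CPM of each gene in each of the 8 samples, with mean (line) and SD (bar) of all 4 samples of a group, each panel on its own axis from 0. The diamond, mutant replicate 1, is the highest sample for 8 of the 10 genes, lies among the WT samples for Jund and is the lowest sample for Ier2.

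The Fos family genes encode partners that need a Jun protein to form AP-1. *Fos* (ENSMUSG00000021250, 4 exons, chromosome 12, 85473890 to 85477273 on GRCm38) had 6.34, 4.44, 5.75 and 5.41 CPM in WT and 15.8, 7.10, 4.10 and 4.62 CPM in mutant replicates 1 to 4. Mutant replicate 1 was the highest and 1 other mutant lay above the WT range, while 1 lay below it. The log2 fold change was 0.52 ± 0.39 (SE, 95% interval -0.34 to 1.38, adjusted p = 0.444), and without mutant replicate 1 it was -0.05 ± 0.21 (-0.52 to 0.41, adjusted p = 0.896). *Fosb* (ENSMUSG00000003545, 4 exons, chromosome 7, 19302696 to 19310051), the closest relative of *Fos* in the family, had 0.611, 1.0, 0.986 and 1.01 CPM in WT and 2.80, 0.724, 0.575 and 0.577 CPM in the mutants, from 7 to 33 counts. Its WT and mutant samples overlapped when replicate 1 was set aside, and at this depth its fold change was not distinguishable from 0, at 0.34 ± 0.53 with all samples (adjusted p = 0.739) and -0.52 ± 0.33 without replicate 1 (adjusted p = 0.305).

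*Fosl2* (ENSMUSG00000029135, 4 exons, chromosome 5, 32135801 to 32157842), which encodes Fra-2, had 15.8, 14.8, 15.7 and 14.1 CPM in WT and 64.3, 19.1, 15.6 and 17.2 CPM in the mutants. Mutant replicate 1 was 3.71 times the mean of the other mutants, of which 2 lay above the WT samples and 1 within them. Its log2 fold change was 0.94 ± 0.42 with all samples (95% interval 0.00 to 1.88, adjusted p = 0.2) and 0.20 ± 0.094 without replicate 1 (-0.0066 to 0.41, adjusted p = 0.17).

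Of the Jun family, *Jun* (ENSMUSG00000052684, 1 exon, chromosome 4, 95049034 to 95052222), which pairs with Fos proteins and with itself, had 77.8, 82.3, 63.6 and 71.5 CPM in WT and 97.4, 77.0, 85.8 and 81.1 CPM in the mutants. The groups overlapped, and the log2 fold change was 0.21 ± 0.097 (adjusted p = 0.217) with all samples and 0.14 ± 0.082 (adjusted p = 0.277) without replicate 1. *Junb* (ENSMUSG00000052837, 1 exon, chromosome 8, 84974484 to 84978718), whose protein often opposes that of *Jun*, had 6.34, 4.37, 7.40 and 6.35 CPM in WT and 24.6, 7.96, 9.06 and 10.3 CPM in the mutants. All 4 mutants lay above all 4 WT samples, which held for *Junb* alone among the members and for 9.52% of all genes.

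The log2 fold change of *Junb* was 1.08 ± 0.35 (95% interval 0.30 to 1.87, adjusted p = 0.0899) with all samples and 0.58 ± 0.17 (0.19 to 0.96, adjusted p = 0.0467) without mutant replicate 1. That call was lost in 7 of the 15 alternatives run on the 7 samples, where the adjusted p reached 0.247 with a correction for GC content and length. The annotated exons of *Junb* share 173 bases with those of *Prdx2*, a peroxiredoxin gene abundant in red blood cells, on the opposite strand. *Prdx2* stood at 372 to 386 CPM in WT and at 829, 548, 708 and 756 CPM in the mutants, and its level, that of *Junb* and the summed erythroid markers put the 4 mutants in the same order. As deposited, with no rounding, *Junb* counts were whole numbers in all 8 samples, *Prdx2* counts in 1 and *Jund* counts in 2. Whether counting used strand is not given in the sources used here, and the part of *Prdx2* reads in the *Junb* value was not tested.

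*Jund* (ENSMUSG00000071076, 1 exon, chromosome 8, 70698949 to 70700616), the constitutive member of the Jun family, was the other gene that rose without mutant replicate 1. It had 201.5, 210.5, 174 and 185 CPM in WT and 186, 252, 269.9 and 259.6 CPM in the mutants, so that mutant replicates 2 to 4 lay above all WT samples and replicate 1 lay within them. Among the members the first of these held for *Junb* and *Jund*, beside 14.6% of all genes. The log2 fold change was 0.33 ± 0.11 with all samples (95% interval 0.08 to 0.58, adjusted p = 0.105) and 0.44 ± 0.064 without replicate 1 (0.29 to 0.58, adjusted p = 0.0019), and with a correction for GC content and length the latter was 0.17 and no longer called (adjusted p = 0.124). *Jund* has 67.1% GC, at percentile 99.8 of the genes tested, and *Junb* 62.6%, at percentile 98.7, beside a median of 49.6%. *Jund* also shares 877 exon bases with the antisense gene *Gm11175*, which had 0 to 38 counts in a sample.

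*Atf3* (ENSMUSG00000026628, 4 exons, chromosome 1, 191170296 to 191218039), a bZIP gene induced through the integrated stress response as well as by JNK, had 10.8, 12.03, 10.6 and 11.8 CPM in WT and 58.6, 13.3, 12.01 and 14.9 CPM in the mutants. Mutant replicate 1 was 4.37 times the mean of the other mutants, of which 2 lay above the WT samples and 1 within them. For this gene the log2 fold change was 1.12 ± 0.48 with all samples (95% interval 0.05 to 2.19, adjusted p = 0.181) and 0.25 ± 0.105 without replicate 1 (0.01 to 0.48, adjusted p = 0.139).

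*Egr1* (ENSMUSG00000038418, 2 exons, chromosome 18, 34859823 to 34864984), a zinc finger factor and a standard readout of ERK signalling through SRF and ETS factors, gave the opposite order in mutant replicate 1 and in the other mutants. It had 11.2, 12.3, 9.70 and 9.06 CPM in WT and 24.2, 7.53, 4.10 and 5.28 CPM in mutant replicates 1 to 4, from 146, 172, 118 and 134 counts in WT and 285, 104, 57 and 64 in the mutants. Mutant replicates 2 to 4 lay below all WT samples, which among the members held for *Egr1* alone and over all genes for 14.5%, while replicate 1 lay above them. With all samples the log2 fold change was -0.05 ± 0.48 (95% interval -1.12 to 1.01, adjusted p = 0.962). Without replicate 1 it was -0.90 ± 0.20 (-1.34 to -0.46, adjusted p = 0.0128), a level 1.87 times lower than in WT. Of the 15 alternatives on the 7 samples, 14 kept this call and 1, which also left out mutant replicate 4, did not, at -0.86 (adjusted p = 0.0501).

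The remaining members gave little difference. *Ier2* (ENSMUSG00000053560, 1 exon, chromosome 8, 84661331 to 84662852) had 43.8, 41.8, 47.9 and 42.3 CPM in WT and 35.7, 43.4, 50.1 and 43.8 CPM in the mutants, so that replicate 1 was the lowest of all samples. Its log2 fold change was -0.02 ± 0.097 (95% interval -0.24 to 0.19, adjusted p = 0.912), and 0.06 ± 0.069 without replicate 1 (-0.094 to 0.21, adjusted p = 0.606). *Klf6* (ENSMUSG00000000078, 4 exons, chromosome 13, 5861482 to 5870394) had 45.6, 45.6, 48.7 and 49.6 CPM in WT and 74.4, 52.3, 44.6 and 46.8 CPM in the mutants. Apart from replicate 1 the groups overlapped, and its log2 fold change was 0.20 ± 0.14 (adjusted p = 0.428) with all samples and 0.02 ± 0.064 (-0.13 to 0.16, adjusted p = 0.893) without it.

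**Figure D3:**
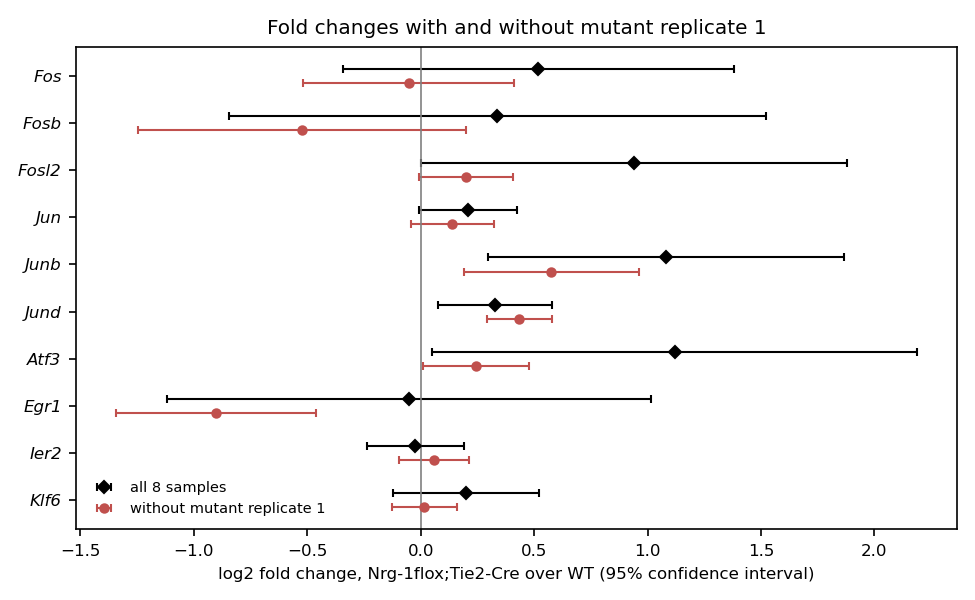
Log2 fold change of mutant over WT for each gene with its 95% interval from edgeR, with all 8 samples and without mutant replicate 1. Without replicate 1 the intervals of Junb, Jund and, narrowly, Atf3 lie above 0 and that of Egr1 lies below 0, at -1.34 to -0.46, while with all samples the interval of Egr1 runs from -1.12 to 1.01.

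Mutant replicate 1 was the highest of the 8 samples for 8 of the 10 members, beside 28.4% of all genes tested, and it was at least 1.5 times the next highest sample for 6 of them, *Fos*, *Fosb*, *Fosl2*, *Junb*, *Atf3* and *Egr1*, beside 4.08% of all genes. Against the mean of the other 3 mutants it was 2.99 times higher for *Fos*, 4.47 for *Fosb* and 4.29 for *Egr1*. The ratio was 2.70 for *Junb*, 1.55 for *Klf6* and 1.198 for *Jun*, and it was under 1 for *Jund* at 0.714 and for *Ier2* at 0.781. The comparison of replicate 1 with its own group has 1 sample on one side and no test was made. *Ier2*, itself an immediate early gene, and *Jund* therefore did not share the position that the other 8 took in that sample.

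**Figure D4:**
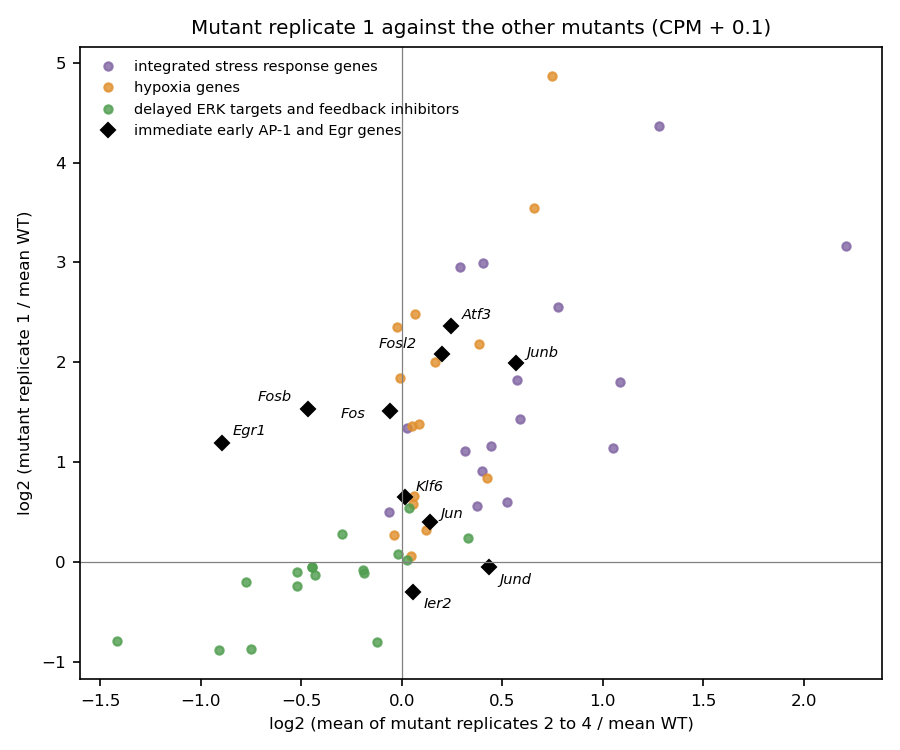
Log2 ratio of mutant replicate 1 to the WT mean (vertical) against the log2 ratio of the mean of mutant replicates 2 to 4 to the same WT mean (horizontal), on CPM + 0.1, for the 10 genes and 3 gene lists. Both axes share the WT samples. Egr1, Fosb and Fos lie above 0 on the vertical and below 0 on the horizontal axis, and Atf3, Fosl2 and Junb lie above 0 on both.

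The other genes of the pathway were counted over lists chosen with earlier results known. Over all genes tested, 5.11% were called higher and 3.5% lower with all samples, 8.62% in either direction, and without mutant replicate 1 these shares were 9.35%, 7.89% and 17.2%. Of 33 other immediate early genes tested, 3 rose and 0 fell with all samples. *Gadd45a*, a growth arrest and DNA damage gene, was higher by 1.97 (log2, adjusted p = 0.0116), *Myc* by 1.21 (adjusted p = 0.00162) and *Dusp1*, a phosphatase of MAP kinases, by 0.57 (adjusted p = 0.00592). Without mutant replicate 1, 6 rose and 0 fell, with *Ccn2*, a matricellular protein gene, at 0.74 (adjusted p = 9.95e-04) among them. Mutant replicate 1 was highest for 22 of the 33, beside 28.4% of all genes, and the median log2 fold change was 0.30 with all samples and 0.12 without it. The calls, 3 of 33 and 6 of 33, were near the shares of all genes called in either direction, 8.62% and 17.2%, and above the shares called higher, 5.11% and 9.35%, and no test of the list was made. *Gadd45a* and *Myc* were thus higher in each mutant, at 11.4 to 44.5 and 34.7 to 56.6 CPM against 5.41 to 6.45 and 19.9 to 21.1 CPM in WT.

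Of 17 genes tested that are induced later by ERK or feed back on it, 0 rose and 6 fell with all samples, beside 3.5% of all genes called lower. Without mutant replicate 1, 0 rose and 10 fell, beside 7.89%. The medians were -0.34 and -0.44, where those of all genes were -0.0014 and -0.0076, and the log2 fold change was above 0 for 4 of the 17 with all samples and for 3 without replicate 1, none of them called. *Spry4*, a Sprouty inhibitor of receptor tyrosine kinase signalling, was 14.4 to 20.6 CPM in WT and 10, 6.23, 7.48 and 5.61 CPM in mutant replicates 1 to 4, with a log2 fold change of -1.24 ± 0.18 (adjusted p = 0.00375). The ETS factors *Etv4*, *Etv5* and *Etv1* had log2 fold changes of -0.91, -0.78 and -0.62 (adjusted p = 0.00575, 0.0018 and 0.0383). Mutant replicate 1 took no common place in this list. *Etv5* stood there at 26.8 CPM beside 27.6 to 32.2 CPM in the other mutants and 45.1 to 56.6 CPM in WT, whereas *Etv1* stood at 14.9 CPM beside 9.23 to 11.5 CPM in the other mutants and 15.1 to 18.5 CPM in WT. The phosphatase genes *Dusp6*, at 46.97 CPM, and *Dusp4*, at 33.3 CPM, lay within their WT ranges in that sample and *Dusp5*, at 17.9 CPM, above it, these 3 being named after their values were seen. The median log2 difference of replicate 1 from the other mutants was 0.28 over the list, beside 0.0017 over all genes, and replicate 1 was the highest sample for 2 of these 17 genes, beside 28.4% of all genes.

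In the ErbB and ERK cascade itself 1 of 25 genes fell with all samples, *Nrg1*, and none rose, beside 8.62% of all genes called. Without mutant replicate 1, where 17.2% of all genes were called and this list lay near that share, there were 2 that rose, the kinase gene *Map2k2* at 0.37 and the receptor gene *Erbb2* at 0.29, and 3 that fell, *Nrg1*, the receptor gene *Erbb4* at -0.37 and the ERK-activated kinase gene *Rps6ka1* at -0.27. Of 13 JNK and p38 cascade genes, 1 rose with all samples, *Map2k3* at 0.33, and 2 rose and 1 fell without replicate 1, which is 3 of 13 beside 17.2%. Of 16 other bZIP genes that can pair with AP-1 proteins, 1 rose with all samples, *Mafk* at 0.54, beside 5.11% of all genes, and 2 rose without it, beside 9.35%. Of 16 SRF and YAP targets, 1 rose, *Tagln* at 0.41, and 1 fell, *Tpm1* at -0.22, and without replicate 1 there were 4 and 1, beside 8.62% and 17.2% of all genes. The counts in these cascade, bZIP and target lists were small and none is read as set apart from all genes.

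Lists of stress genes were set beside the members for mutant replicate 1. Of 16 genes of the integrated stress response, to which *Atf3* also belongs, 7 rose and 0 fell with all samples, beside 5.11% of all genes called higher, and 10 rose and 0 fell without replicate 1, beside 9.35%. *Trib3*, a pseudokinase gene induced by ATF4, was 6.69 to 8.88 CPM in WT and 69.7, 23.7, 40.1 and 43.6 CPM in mutant replicates 1 to 4 (log2 fold change 2.52 ± 0.29, adjusted p = 0.0018), and *Asns*, the asparagine synthetase gene, was higher by 1.3 (adjusted p = 0.00251). Replicate 1 was the highest sample for 14 of these 16, beside 28.4% of all genes. Of 15 hypoxia genes tested, 1 rose, *Slc2a1*, a glucose transporter gene, at 0.54, and without replicate 1 there were 2, close to the shares of all genes called higher, while replicate 1 was the highest for 14 of the 15 and exceeded the other mutants by a median log2 difference of 1.31.

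Of 15 heat shock and tissue handling genes, 0 rose and 2 fell with all samples, *Dnaja1* at -0.24 and *Hspd1* at -0.19, beside 8.62% of all genes called, and 1 rose and 4 fell without replicate 1, beside 17.2%. Replicate 1 was highest for 5 of the 15, near the 28.4% of all genes, with a median log2 difference from the other mutants of 0.0056. The inducible chaperone genes *Hspa1a* and *Hspa1b*, singled out after their values had been seen, stood at 35.1 and 55.5 CPM in mutant replicate 1, where the other mutants had 1.3 to 4.45 and 1.40 to 4.34 CPM and WT had 1.22 to 1.56 and 2.15 to 3.70 CPM. The part of stress, hypoxia and blood content in the level of the immediate early genes in replicate 1 was not tested, and in 1 sample they cannot be told apart.

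The samples were also described by the mean z-score of the 10 members, which was -0.36 to -0.27 in WT, 1.45 in mutant replicate 1 and -0.13 to 0.03 in the other mutants. The 5 other genes whose log2 CPM was most like it over the 8 samples were *Selenbp1*, *Zap70*, *Cenpe*, *Spg21* and *Zfp9*, with Pearson's r of 0.996, 0.994, 0.992, 0.991 and 0.990. Over the 7 samples without replicate 1 the same values were 0.946, 0.882, 0.879, 0.842 and 0.788, and over the 6 samples without mutant replicates 1 and 2 they were 0.890, 0.957, 0.807, 0.771 and 0.454. Not every member followed the mean that it is part of. Over the 8 samples r was -0.75 for *Ier2* and -0.15 for *Jund*, and 0.62 to 0.99 for the other members. Without replicate 1 it was -0.62 for *Egr1* and -0.64 for *Fosb*, and 0.14 to 0.88 for the others. All points share the 8 libraries, 561 genes had an r over 0.9 with all of them, and the values are a description only.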

How the data were processed

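Ventricle RNA of 4 WT and 4 Nrg-1flox;Tie2-Cre samples was measured by RNA-seq. The authors deposited expected counts per gene, made with RSEM 1.3.1 after cutadapt on GRCm38 according to the submitters' processing notes. The aligner and the strand setting are not given in the sources used here. The expected counts were rounded, genes were filtered with filterByExpr, libraries were scaled by TMM, and groups were compared in R 4.3.3 with edgeR 4.0.16 (quasi-likelihood test, Benjamini-Hochberg adjustment over all genes tested, threshold 0.05). The scripts were tested on simulated data. Alternatives were DESeq2 1.42.0, limma 3.58.1 voom with sample weights, upper-quartile scaling, other filters, removal of hemoglobin and mitochondrial genes, a GC and length correction, a replicate block and leaving out each sample. Those on the 7 samples without mutant replicate 1 were added after seeing the data. Intervals are 95% intervals of the fitted log2 fold change. With 7 to 33 counts in *Fosb* and 57 to 285 in *Egr1*, low genes are less precise than *Jund*. Lengths and GC content came from GENCODE M21.

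The 10 genes and the lists were chosen with earlier results of these data known. The genes named were all members, *Nrg1*, at most 4 called genes with the largest change per list and direction, and the 5 genes most like the members' mean profile, and *Prdx2*, *Gm11175*, *Dusp4*, *Dusp5*, *Dusp6*, *Hspa1a* and *Hspa1b* were named after their values were seen. Correlations of same-numbered samples' deviations were 0.0105, -0.0911, -0.00381 and 0.0187, so no pairing by number was seen. The outlying mutant replicate 1 enters the mutant mean behind these values, so they cannot exclude a pairing. A planned comparison of protein sequences was not run. A result among the other bZIP genes is not reported here.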

Additional observations from a re-analysis of the deposited data

Results flagged for a closer look

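Of 22 groups of 4 samples examined, 6 held a sample set far from the others, where chance gives about 1 in 20. In the mutant this was replicate 1, the highest, for *Fosb* (gap to the nearest sample over the whole range 0.933), *Junb* (0.859), *Fosl2* (0.928), *Atf3* (0.938) and *Egr1* (0.8291). In WT it was replicate 1, the lowest for *Fosb* (0.931), at 0.611 CPM beside 0.986 to 1.01 CPM in the others. The *Fosb* value in WT rests on 8 counts beside 12 to 15. The 5 mutant values come from 1 library and are not independent of each other.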

How the results depend on the processing

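*Junb*, *Jund*, *Fosl2*, *Atf3*, *Jun*, *Klf6* and *Nrg1* kept their direction under every alternative run on all samples, and *Nrg1* its call. The 1245 genes called became 3062 with limma-voom sample weights and 509 to 2523 when 1 sample was left out, 2523 being without mutant replicate 1. No pairing by replicate number was seen, and with a replicate block 616 genes were called, or 568 with the block and a GC and length correction, no member among them. Members called higher, 0 in edgeR, were 2 with DESeq2, 2 with limma-voom, 1 with no filter on low counts and 0 to 2 with a sample left out, and members called lower, 0 in edgeR, were 1 with limma-voom and 0 to 1 with a sample left out, the calls coming only without mutant replicate 1. The log2 fold change reversed with limma-voom for *Fos* (-0.15), *Fosb* (-0.39) and *Ier2* (0.056), and over single samples left out it ran from -0.052 to 0.74 for *Fos*, -0.52 to 0.57 for *Fosb*, -0.90 to 0.22 for *Egr1* and -0.10 to 0.059 for *Ier2*. Without mutant replicate 1, 2523 genes were called, or 1260 to 2932 with a further sample left out. The 2 members then called higher became 1 with upper-quartile scaling, 0 with a GC and length correction and 1 to 2 with a further sample left out, and the 1 called lower became 0 to 1. There *Junb* ran from 0.35 to 0.68, *Jund* from 0.17 to 0.48 and *Egr1* from -1.17 to -0.72. *Fosb* was not tested under a minimum of 10 counts in every sample, and its counts limit what can be seen. The cause of these changes was not tested.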
